A study of Homo sapiens with 6 samples.

Results

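Syndecans and glypicans are the main families of heparan sulfate proteoglycans at the cell surface. The genes were chosen by symbol, as SDC1 to SDC4 and GPC1 to GPC6, by matching the RefSeq accession that opens each probe set identifier to its gene. Of these 10 genes, 9 had a probe set among the 927 named genes of the array, with 10 of its 1259 probe sets: 1 for each gene and 2 for SDC4. GPC2 was not analysed here.

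RKO is a human cell line established from a colon carcinoma. RKO C2 F3 cells were sorted out of RKO C2 by flow cytometry for low surface u-PAR, the urokinase receptor, and RKO C2 is the clonal population they came from. F3 is called a population in the design text and a clonal one in the sample labels, the labels give no further treatment or genetic change for either, and both derive from 1 clone of the line. RNA from each was hybridised to 3 Affymetrix arrays, with replicate numbers 1 to 3 in both populations. The study asked which glycosylation enzyme F3 lacks, given that u-PAR matures incompletely in it, and whether the 3 arrays came from separate cultures is not stated.

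Both families consist of a core protein with heparan sulfate chains on serines next to glycines, and the chains bind growth factors, Wnts, hedgehogs and chemokines and present them to their signalling receptors. A syndecan crosses the membrane once and has a short cytoplasmic tail that ends in a binding site for PDZ-domain proteins such as syntenin. A glypican has no cytoplasmic part: its globular core is held in the outer leaflet by a glycosylphosphatidylinositol (GPI) anchor, the same kind of anchor that holds u-PAR. In the intestinal epithelium syndecan-1 is the best known member, on the basolateral surface.

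The values are log2 expression after robust multi-array averaging (RMA), 1 per probe set and array, so a difference of 1 is a change of 2-fold. They report RNA; neither core protein nor anchor was measured. The arrays were alike in scale, with medians between 5.48 and 5.51 and correlations across probe sets between 0.9981 and 0.9992 for any 2 arrays. Precision is limited by having 3 arrays per population. In the comparison of F3 with C2 by limma, 1 of 1259 probe sets (0.0794%) passed a Benjamini-Hochberg adjusted p of 0.05. It was PIGB, the mannosyltransferase for mannose III of the GPI anchor, with a log2 change of -0.87 (limma adjusted p = 0.013).

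None of the 10 syndecan and glypican probe sets passed that threshold. Their smallest limma adjusted p was 0.97, and 0 of 10 had an unadjusted p under 0.05, where 5.4% of all probe sets did. The 3 arrays of F3 overlapped with the 3 of C2 for every one of the 10, while the populations did not overlap for 10.3% of all probe sets. In F3 4 of the 10 were higher and 6 lower, where 45.4% of all probe sets were higher. The 10 had a median log2 change of -0.013, against -0.0064 over all probe sets, and a median absolute change of 0.068, against 0.047 over all. By gene, with 1 probe set for SDC4, 3 were higher and 6 lower. The median absolute change by gene was 0.058, against 0.049 over all named genes. Each of the 10 changes was smaller in size than the 95th percentile of all absolute changes, which was 0.17. GPC1 lay almost on that percentile, at 0.16601 against 0.16609, and GPC4 was at the 90.8th percentile of absolute change. The 95% intervals of the 10 changes together ran from 0.76-fold to 1.32-fold in F3 over C2, and PIGB stood at 0.55-fold. These intervals cover the spread between arrays; RMA also shrinks differences of dim probe sets, and the intervals do not cover that.

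**Figure D1:**
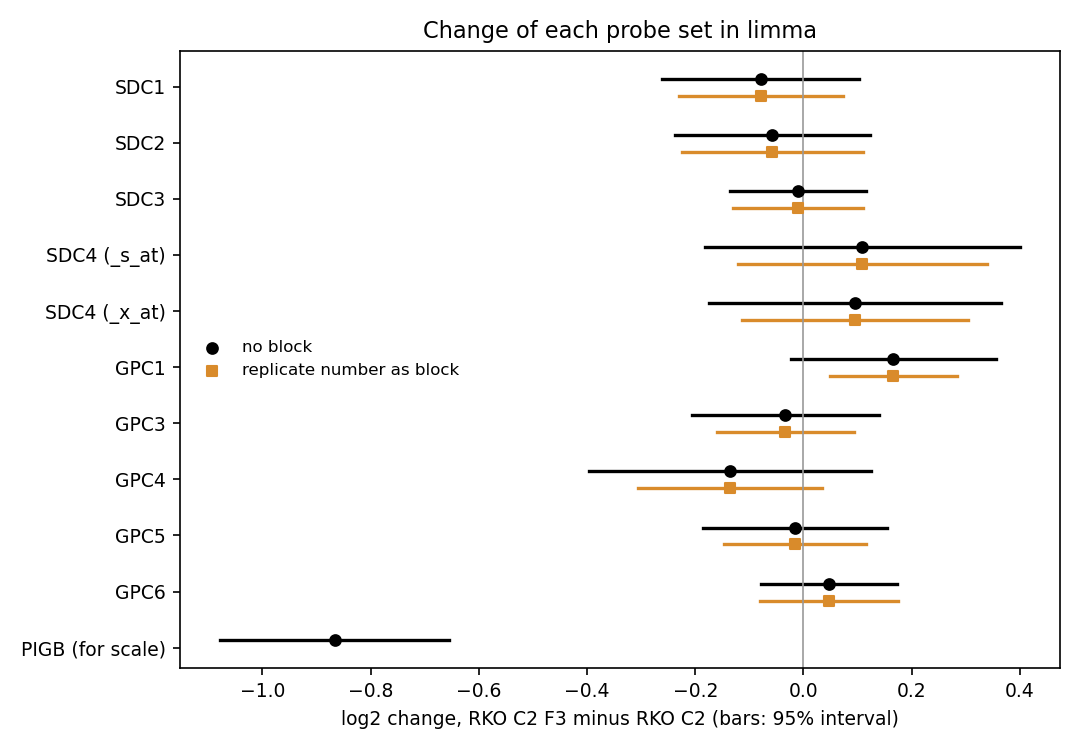
Log2 change of each syndecan and glypican probe set (F3 minus C2, horizontal axis) with its 95% interval from limma, without a block (black circles) and with replicate number as a block (orange squares); PIGB without a block stands below for scale. All 10 intervals without a block include 0, and with the block the interval of GPC1, from 0.05 to 0.28, lies above 0.

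The probe sets differed widely in signal. Those of GPC1, SDC1 and SDC4 were bright, at or above the 83.6th percentile of all probe sets by mean over the 6 arrays. GPC4 stood at the 62.2nd, SDC3 at the 46.7th and GPC3 at the 31.0th percentile. SDC2, GPC6 and GPC5 were dim, at the 13.3rd, 11.9th and 10.2nd percentiles. Brightness depends on the affinity of the probes as well as on the RNA, so these percentiles are not an order of transcript amounts. Nor do they give precision: the change of the bright SDC4 _s_at set had an SE of 0.13 and that of dim GPC6 one of 0.055. The table carries no detection call, and for the 3 dim probe sets a low level of RNA and background cannot be told apart.

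Among the syndecans, SDC1, the epithelial member, had log2 expression of 9.40, 9.49 and 9.50 on the F3 arrays numbered 1 to 3 and of 9.44, 9.72 and 9.48 on the C2 arrays. The populations overlapped, and C2 replicate 2 was the highest of the 6 arrays. The log2 change was -0.079 (SE 0.079, 95% interval -0.26 to 0.10, limma adjusted p = 0.98). Without C2 replicate 2 it was 0.0071, and without replicate 2 of both populations it was -0.0064. Most of its size thus rested on C2 replicate 2, and its sign differed between these 2 fits.

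SDC4, a widely expressed syndecan of focal adhesions, was read by 2 probe sets for the same transcript, which are not independent measurements. One ends in _s_at and the other in _x_at, the suffix Affymetrix gives to sets with probes that may also bind other sequences. The _s_at set had 9.11, 9.08 and 9.20 in F3 and 9.24, 8.70 and 9.13 in C2. The _x_at set had 9.11, 9.03 and 9.13 in F3 and 9.22, 8.70 and 9.06 in C2. In both sets C2 replicate 2 lay below all 5 other arrays, while C2 replicate 1 was the highest of the 6.

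The SDC4 _s_at change was 0.11 (SE 0.13, 95% interval -0.18 to 0.40, limma adjusted p above 0.99, as for _x_at at 0.095). Without C2 replicate 2 the changes were -0.054 for _s_at and -0.051 for _x_at. The SD of the _s_at set was 0.066 in F3 and 0.29 in C2 (n = 3 each). Its pooled within-group SD was at the 97.8th percentile of all probe sets, and that of the _x_at set at the 96.1st. The 2 sets differed from each other by between -0.0035 and 0.078 on any array. The low value of C2 replicate 2 was thus read by both sets of the gene.

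SDC3, best known from the nervous system, varied least among the syndecans. It had 5.25, 5.33 and 5.33 in F3 and 5.29, 5.37 and 5.28 in C2. The 6 values spanned 0.12, and the change was -0.0098 (SE 0.055, 95% interval -0.14 to 0.12). It was 0.019 without F3 replicate 1 or without C2 replicate 2. SDC2, a syndecan of mesenchymal cells that is also found in colon carcinoma, had 3.06, 3.08 and 3.03 in F3 and 3.29, 3.01 and 3.04 in C2. C2 replicate 1 alone stood above the rest, and the change was -0.058 (SE 0.079). Without C2 replicate 1 the change was 0.032.

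**Figure D2:**
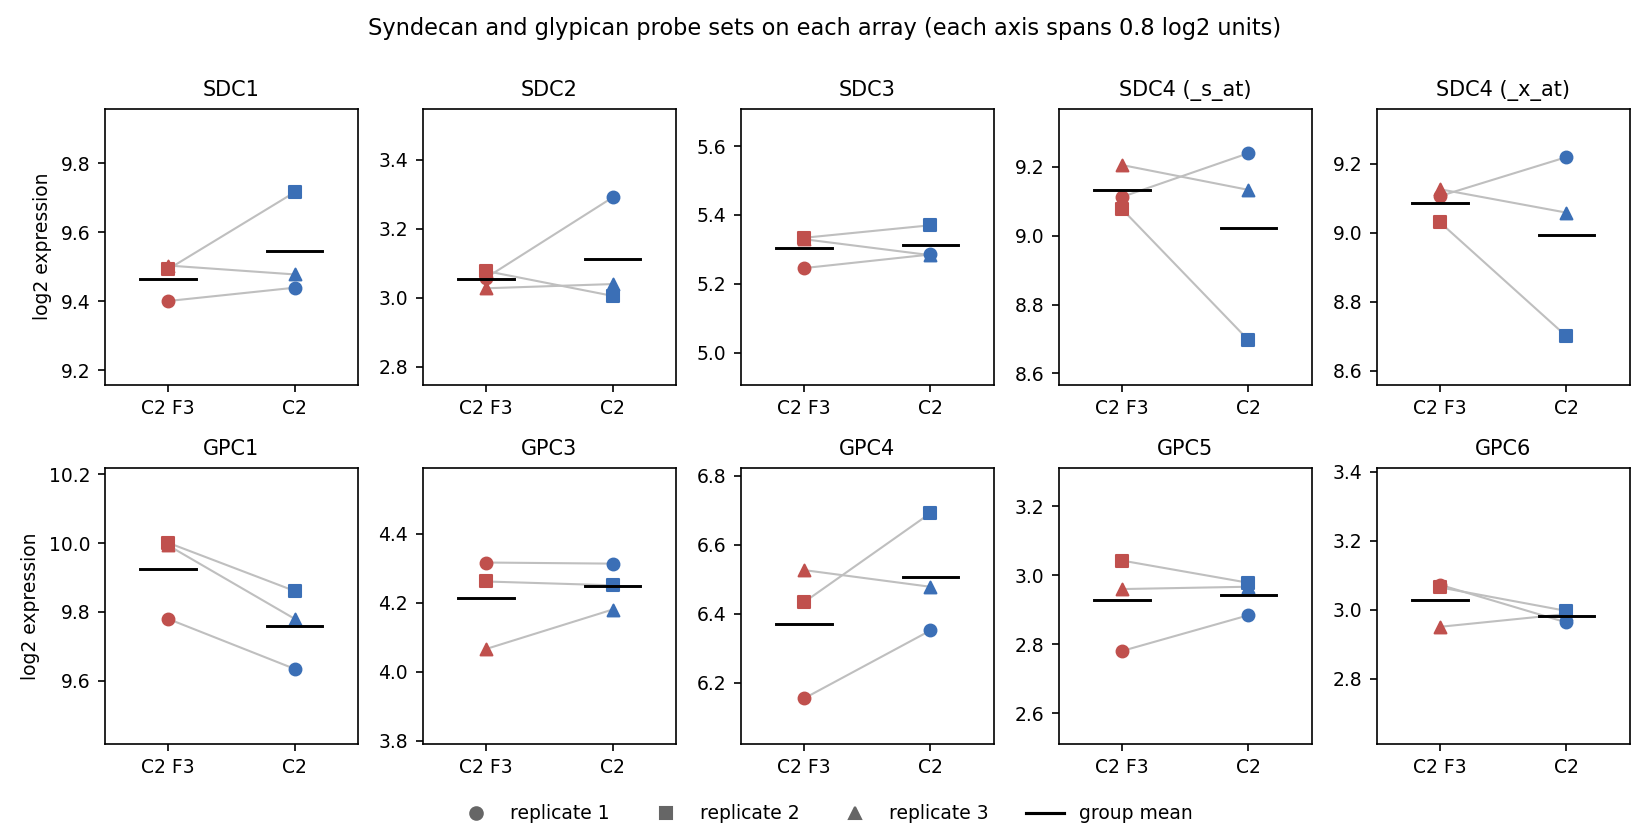
Log2 expression of the 10 probe sets on each array, with F3 (red) at the left and C2 (blue) at the right of each panel; marker shapes give the replicate number, grey lines join arrays of the same number and black bars are group means. C2 replicate 2 lies apart in both SDC4 panels, at 8.70, and GPC1 is the panel whose 3 grey lines all run downward from F3 to C2.

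Among the glypicans, GPC1, the broadly expressed member, had the smallest p of the members. It had log2 expression of 9.780, 10.001 and 9.993 in F3 and of 9.635, 9.861 and 9.780 in C2. F3 was higher than C2 for each replicate number, by 0.15, 0.14 and 0.21, yet F3 replicate 1 lay below C2 replicate 2 and level with C2 replicate 3. All 3 same-numbered differences also had 1 sign for 29.9% of all probe sets. GPC1 averaged 9.92 ± 0.13 in F3 and 9.76 ± 0.11 in C2 (SD, n = 3 each). The change was 0.17 (SE 0.083, 95% interval -0.023 to 0.36, limma adjusted p = 0.97), or 1.12-fold, and ranked 98th of 1259 by p.

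Once replicate number entered the model as a block, the GPC1 interval narrowed to 0.048 to 0.28, with an unadjusted limma p of 0.013 and an adjusted p of 0.52. This fit called 0.159% of all probe sets at an adjusted p under 0.05 and none of the 10 members. At an unadjusted p under 0.05 it called 8.02% of all probe sets and 1 of the 10, GPC1. Leaving out single arrays moved the change between 0.10, without C2 replicate 1, and 0.24, without F3 replicate 1. The direction held in all 17 alternative fits, but some of these return the main change by design and could not turn it. For GPC1 these were the replicate block, the filter on dim probe sets, other variance models, the ordinary test in place of limma and the fit by gene. It could have turned with scalings, array weights or arrays left out, and held there too. The call did not pass in any of the 17. The unadjusted limma p of GPC1 was also under 0.05 with quantile normalization (0.025) and array weights (0.034). It was so too without F3 replicate 1 (0.017), C2 replicate 2 (0.038) or number 1 of both populations (0.040). In every other alternative fit the unadjusted p lay between 0.057, with median centring, and 0.27, without number 3 of both.

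GPC4, a glypican expressed in many developing tissues, had 6.15, 6.43 and 6.53 in F3 and 6.35, 6.69 and 6.48 in C2. Array number 1 was the lowest of its population in both, and the 6 values spanned 0.54, as widely as those of SDC4. The change was -0.14 (SE 0.11, 95% interval -0.40 to 0.12, limma adjusted p = 0.97). It was -0.027 without F3 replicate 1 and -0.044 without C2 replicate 2, and -0.21 without F3 replicate 3 or without C2 replicate 1.

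GPC3, an oncofetal glypican that is mutated in Simpson-Golabi-Behmel syndrome, had 4.32, 4.26 and 4.07 in F3 and 4.31, 4.25 and 4.18 in C2. The replicates were in the same order in both populations, and at numbers 1 and 2 they differed between the populations by 0.0032 and 0.011. The change of -0.033 (SE 0.075) turned to 0.041 without F3 replicate 3.

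The remaining glypicans were dim. GPC5 had 2.78, 3.04 and 2.96 in F3 and 2.88, 2.98 and 2.97 in C2, with a change of -0.015 (SE 0.074). It was 0.058 without F3 replicate 1. GPC6, which is mutated in omodysplasia, had 3.07, 3.07 and 2.95 in F3 and 2.96, 3.00 and 2.99 in C2, with a change of 0.047 (SE 0.055, 95% interval -0.078 to 0.17). It was 0.025 without F3 replicate 1, 0.029 without F3 replicate 2 and 0.086 without F3 replicate 3. In the RefSeq annotation GPC5 and GPC6 neighbour each other on chromosome 13 and GPC3 and GPC4 on chromosome X, with 0 protein-coding genes between them. The changes within each neighbouring pair were -0.015 and 0.047, and -0.033 and -0.14.

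**Figure D3:**
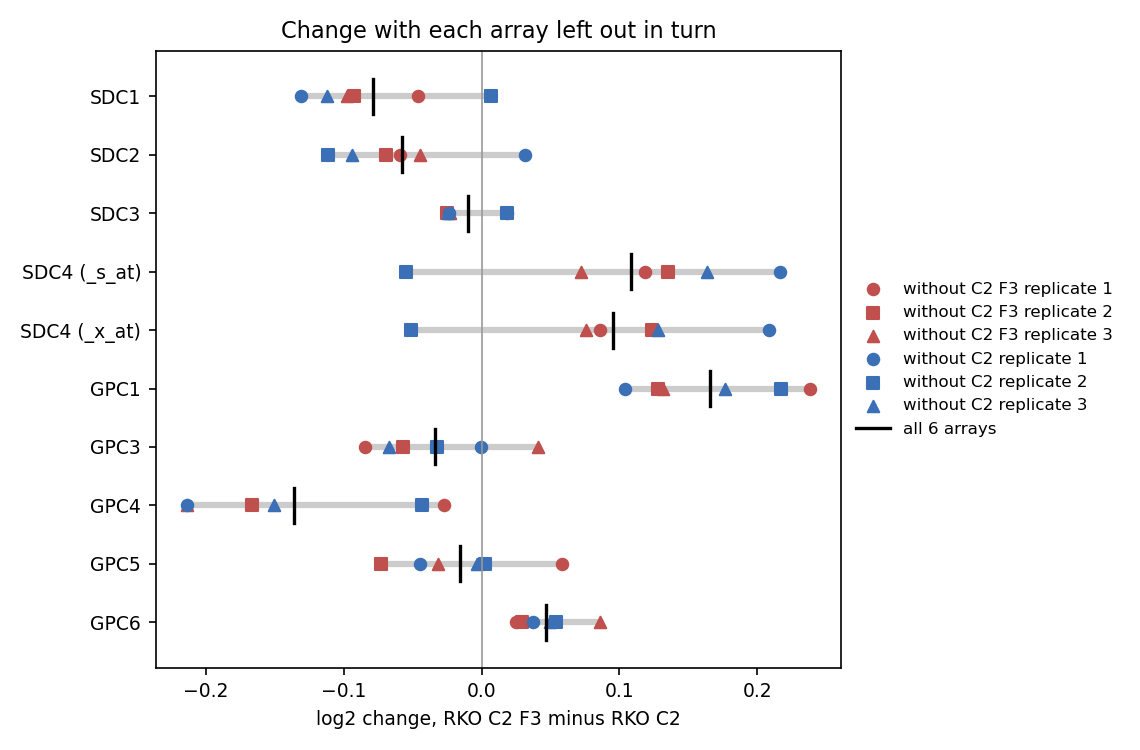
Log2 change (F3 minus C2, horizontal axis) of each probe set with all 6 arrays (black bar) and with 1 array left out in turn (red symbols, an F3 array; blue symbols, a C2 array; shape, the replicate number). The SDC4 changes lie between 0.072 and 0.22 except without C2 replicate 2, where they are -0.054 and -0.051, and those of GPC1, GPC4 and GPC6 stay on 1 side of 0.

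The order of the replicate numbers was compared between the populations. For 7 of the 10 probe sets the same replicate number was lowest in F3 and in C2, against 46.1% of all probe sets. It was number 1 for SDC1, GPC1, GPC4 and GPC5, number 2 for both SDC4 sets and number 3 for GPC3. The SDC4 sets both enter that count, although they are not independent of each other. The same number was highest in both for 4 of the 10, against 42.3% of all. F3 arrays deviated from their population mean by a median absolute value between 0.051 and 0.061 over the 10 probe sets. C2 replicates 1 and 2 deviated by 0.11 and 0.10, and C2 replicate 3 by 0.048. Over all probe sets these medians were alike, between 0.042 and 0.053 on the 6 arrays. How far single arrays moved each change is given by the values with 1 array left out.

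**Figure D4:**
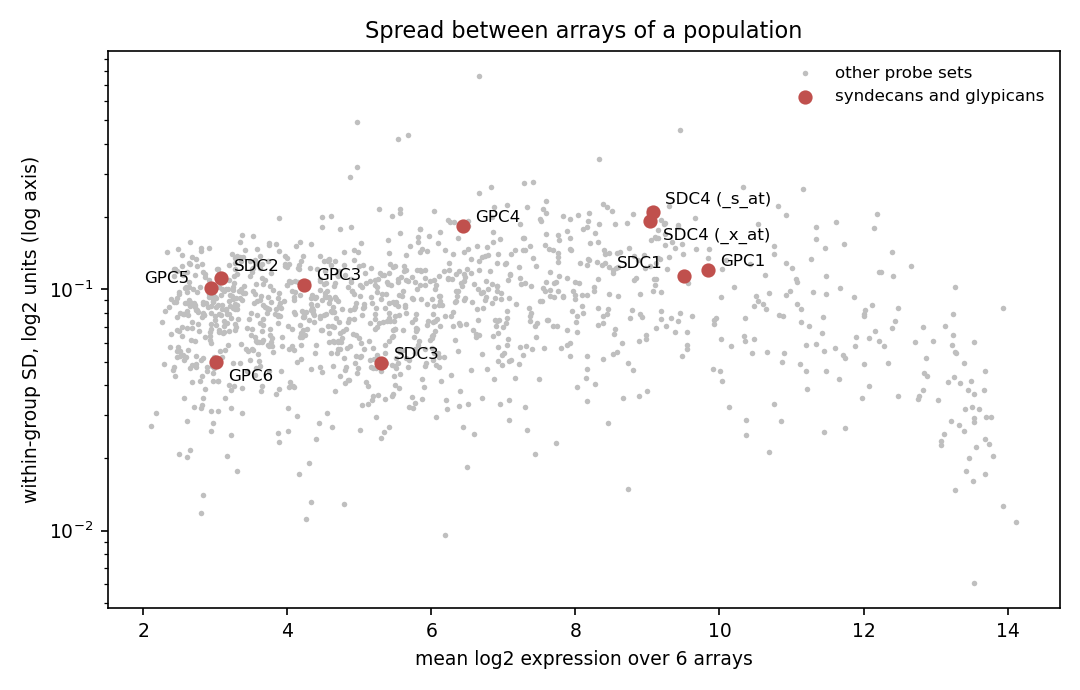
Pooled within-group SD (vertical, log axis) against mean log2 expression over the 6 arrays (horizontal) for the 10 syndecan and glypican probe sets (red) and all others (grey). Both SDC4 sets and GPC4 lie at the upper edge, at the 97.8th, 96.1st and 95.1st percentiles of SD, and SDC3 and GPC6 lie low, at the 18.4th and 18.6th.

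By the mean absolute difference between values centred on each gene's own mean over the 6 arrays, the genes whose pattern lay closest to that of GPC1 were SPOCK2 (0.042), GBGT1 (0.044) and PIGQ (0.050). The median over the 926 other genes was 0.12. SPOCK2, which encodes the proteoglycan testican-2, had a log2 change of 0.18 (limma adjusted p = 0.84). These differences rest on 6 arrays and describe likeness in these samples alone.

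The other heparan sulfate core proteins on the array likewise held none past the threshold. Of 5 genes measured out of 7 listed, 0 passed in limma, with 0 at an unadjusted p under 0.05, where 5.4% of all probe sets were. In F3 3 of the 5 were higher and 2 lower, with a median log2 change of 0.024. CD44, which carries heparan sulfate in some splice forms, had 8.18, 8.24 and 8.56 in F3 and 8.05, 8.26 and 8.29 in C2. Its change was 0.13 (SE 0.11, limma adjusted p = 0.97). TGFBR3, the part-time proteoglycan betaglycan, was at -0.10, the basement membrane proteoglycan HSPG2 at -0.035 and the granule proteoglycan SRGN at 0.067. Single arrays left out moved CD44 between 0.0098 and 0.20, TGFBR3 between -0.19 and -0.029 and HSPG2 between -0.074 and -0.00090.

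The chains of both families start with a linker tetrasaccharide. Of 7 linker synthesis genes measured out of 8 listed, 0 passed in limma, and the median change was -0.054. At an unadjusted p under 0.05 there was 1, against 5.4% of all probe sets. That 1 was B3GAT2, better known for the HNK-1 epitope, at -0.20 (SE 0.068, limma adjusted p = 0.84). Its signal was low, with a mean log2 expression of 3.21 in F3 and 3.41 in C2. XYLT2, which transfers the first xylose to the core protein, was at -0.10 and B3GALT6, which adds a linker galactose, at -0.054. B3GAT3, which completes the linker with glucuronic acid, had 7.27, 7.32 and 7.21 in F3 and 7.09, 7.76 and 7.11 in C2. C2 replicate 2, the array with low SDC4, was thus the highest for B3GAT3, and without it the change of -0.055 became 0.17. Without the same array B3GALT6 was at 0.021 and XYLT2 at -0.037.

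All 25 listed genes of heparan sulfate polymerisation and modification were measured, and 0 passed in limma, with 1 at an unadjusted p under 0.05. Their changes had a median of -0.022, and 10 were positive and 15 negative. PAPSS2, 1 of 2 synthases of the sulfate donor of all sulfotransferases, had 4.47, 4.13 and 4.42 in F3 and 4.80, 4.88 and 4.80 in C2. That 1 was PAPSS2: its populations did not overlap, and the change was -0.49 (SE 0.089, 95% interval -0.69 to -0.28, limma adjusted p = 0.19). PAPSS1, the other synthase of that donor, is given after its values were seen: it averaged 9.63 in F3 and 9.61 in C2, a change of 0.020 (SE 0.064). The copolymerase subunit EXT2 was at -0.11, the 2-O-sulfotransferase HS2ST1 at -0.14 and the 6-O-sulfotransferase HS6ST2, which was dim, at -0.081.

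Of 12 genes measured out of 13 in the list of heparan sulfate editing and degradation, 0 passed in limma, and the median was -0.049. At an unadjusted p under 0.05 there was 1, against 5.4% of all probe sets. GUSB, the lysosomal beta-glucuronidase, was at -0.15 (SE 0.056, limma adjusted p = 0.84). IDS, the iduronate sulfatase, was at -0.28, with its other probe set at -0.021. IDUA, the iduronidase, was at 0.090 and SGSH, the N-sulfoglucosamine sulfohydrolase, at -0.069. These lysosomal enzymes act on other glycosaminoglycans too or on heparan sulfate from any core. ARSB, a sulfatase of chondroitin and dermatan sulfate that is also on the list, was at -0.063.

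**Figure D5:**
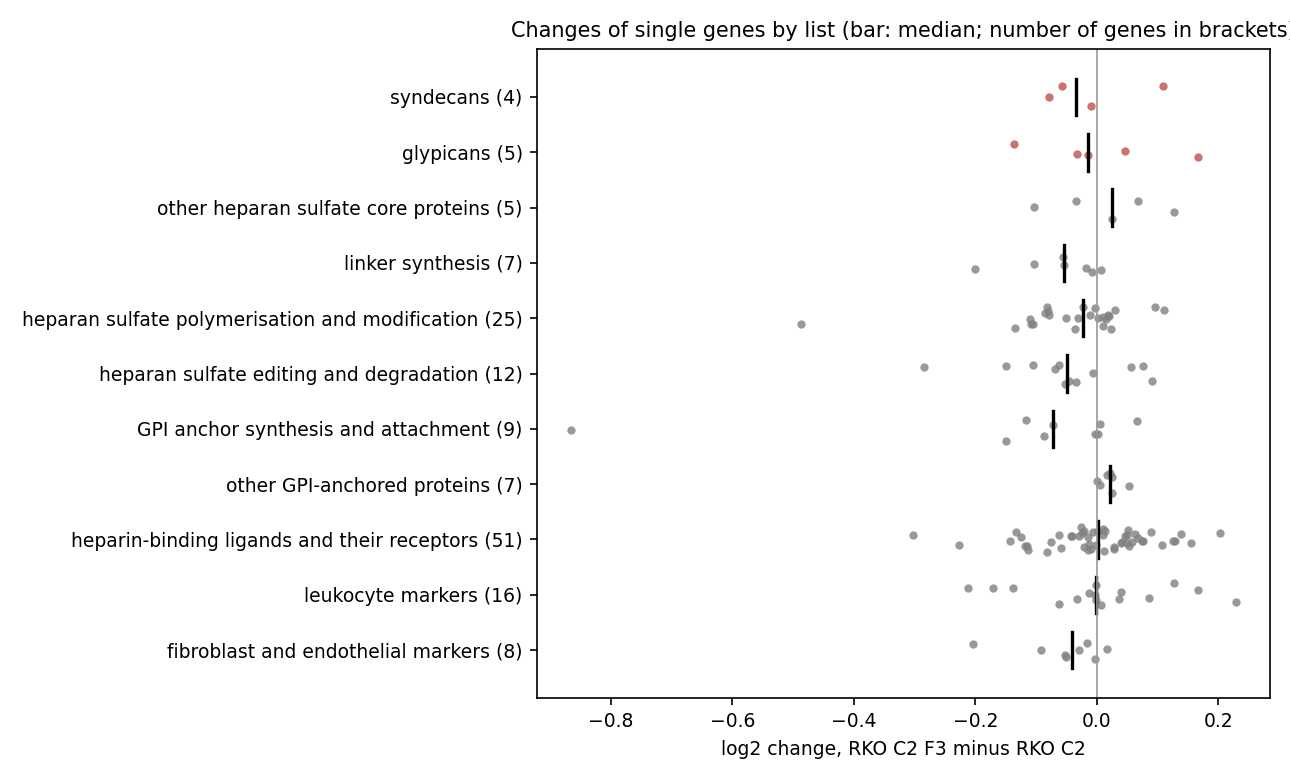
Log2 change (F3 minus C2, horizontal axis) of each measured gene, by list; syndecans and glypicans are red, other lists grey, black bars are list medians, and the vertical offset within a list has no meaning. The medians lie between -0.073 for GPI anchor synthesis and attachment and 0.024 for other heparan sulfate core proteins, and PIGB, at -0.87, lies farthest from 0.

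Glypicans depend on GPI anchor synthesis for their place in the membrane. Of 9 genes measured out of 31 in that list, PIGB fell and 8 did not pass in limma, with a median change of -0.073. PIGB had 6.46, 6.33 and 6.68 in F3 and 7.28, 7.45 and 7.34 in C2, and the populations did not overlap. Leaving out single arrays, the adjusted p of PIGB lay between 0.0045 and 0.15, and it missed the threshold without C2 replicate 2, C2 replicate 3 or F3 replicate 1. PIGA, the catalytic subunit of the GlcNAc-transferase that opens the pathway, was at -0.12, its partner subunit PIGH at -0.15, and DPM3, of dolichol-phosphate-mannose synthase, at -0.087. The 5 glypican transcripts had changes between -0.14 and 0.17, and 0 of 5 passed.

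Of other proteins with a GPI anchor, 7 genes out of 55 listed were measured. None passed in limma, also with no adjustment at 0.05, where 5.4% of all probe sets did. The changes of the 7 lay between 0.00018 and 0.052. UMOD was at 0.052, GFRA2 at 0.025, the hyaluronidase HYAL2 at 0.024 and GFRA1 at 0.022. Each of these 4 was negative with some array left out, the lowest values being -0.052, -0.0077, -0.038 and -0.032 in the same order.

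Among 51 genes measured out of 53 heparin-binding ligands and their receptors, 0 passed in limma, and the median change was 0.0011. At an unadjusted p under 0.05 there were 1 higher and 2 lower, against 5.4% of all probe sets in either direction. FGFR2, a fibroblast growth factor receptor that signals with heparan sulfate as coreceptor, had 5.57, 5.59 and 5.59 in F3 and 5.85, 6.06 and 5.74 in C2. Its change was -0.30 (SE 0.079, limma adjusted p = 0.73). MET, the receptor of hepatocyte growth factor, was at -0.23, FGF9 at 0.20 and FGF5 at -0.13, with the other FGF5 probe set at 0.0025.

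None of the 13 sheddases and cytoplasmic partners of the core proteins on their list had a named probe set, so neither shedding nor signalling through the tails could be followed. Markers of other cell types did not pass in limma: the 16 leukocyte genes measured had a median change of -0.0015 and the 8 fibroblast and endothelial genes one of -0.041. At an unadjusted p under 0.05 there were 2 higher and 1 lower in F3 among the 16, and 0 higher and 1 lower among the 8. Of all 927 named genes 19 were higher and 35 lower at that level, and of all probe sets 5.4% were under it. Mean log2 levels ran from 2.39 to 5.79 in F3 and from 2.60 to 5.76 in C2 for the leukocyte list. For the fibroblast and endothelial list they ran from 2.274 to 5.005 in F3 and from 2.325 to 5.146 in C2. The genes of these 2 lists with the smallest p were CD72 (0.23), KLRC1 (-0.21), SIGLEC5 (0.17) and CLEC4D (-0.14), and ICAM2 (-0.20), PDGFRB (-0.091), LUM (-0.051) and VCAM1 (-0.053).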

How the data were processed

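Total RNA was extracted with Trizol and labelled as biotinylated cRNA, per the labels' protocols. The authors deposited log2 values, made with RMA per the submitters' processing notes, whose version and genome build were not given in the sources used here. This method equalises the arrays' distributions, but over these probe sets the array medians still ran from 5.48 to 5.51. Quantile normalization of the deposited values moved the change of SDC1 from -0.079 to -0.027 and that of SDC4 _s_at from 0.11 to 0.16. Of 1259 probe sets, 1043 were named by RefSeq accession, without version, in the RefSeq gene table of GRCh38, and 216 stayed unnamed in the tests. Coordinates are left out, since no build is named for the probe sets.

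F3 was compared with C2 in limma 3.58.1 (R 4.3.3; lmFit, eBayes, two-sided, no block), with p adjusted by Benjamini-Hochberg across all 1259 probe sets and called under 0.05. The fit was first tested on simulated data with noise independent between arrays and no effect of replicate number, so arrays paired by number were not covered. Detection of changes as small as those of the members was not tested. P-values measure the spread between these arrays, which may be technical. For gene lists, the probe set with the highest mean stands for its gene. The members and lists were chosen with earlier results of these data known. Named were all members, up to 4 genes of smallest p per list, probe sets past the threshold and the 3 genes closest to the member of smallest p.

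Arrays share replicate numbers, and a label suffix by number. Centred on its population, each F3 array was correlated with the C2 array of its number across probe sets, giving r = 0.52, 0.18 and 0.26. As all exceed 0.1, the numbers may pair the arrays, on evidence from the data. Changes, SEs, intervals and p-values are from the fit without the block unless the block is named. With the block the SE of every member probe set was smaller. For GPC4 it was 0.071 in place of 0.11, with a 95% interval from -0.31 to 0.034. C2 replicate 2 also had r = 0.15 with F3 replicate 3, so arrays of unlike numbers could exceed 0.1 too. The alternatives were the replicate block, scalings, a filter on the dimmest 25% of probe sets, other variance models, array weights, arrays left out, an adjusted p under 0.10 and genes in place of probe sets.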

Additional observations from a re-analysis of the deposited data

How the results depend on the processing

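The number of syndecan and glypican probe sets past the threshold was 0 with all arrays, with an adjusted p under 0.10 and in all 17 alternative fits, where their smallest adjusted p was 0.52, for GPC1 with the replicate block. The number over all probe sets was 1 with all arrays, 2 with the replicate block, 2 with an adjusted p under 0.10, 0 in the ordinary two-sample test (67 at an unadjusted p under 0.05; 68 in limma) and 0 to 2 with 1 array or both arrays of a number left out. The block changed no call among the members. Of 167 changes of members under alternatives, 21 turned in direction, over 7 of the 10 probe sets, and none was past the threshold. GPC1, GPC4 and GPC6 did not turn. Many of the 167 could not turn, since their fits return the main change by design. These were the replicate block, the dim filter, the other variance models and the ordinary two-sample test. For genes with 1 probe set the fit by gene was another, and it counted 1 averaged SDC4 change under both SDC4 sets. With median centring SDC3 was at 0.0055 and GPC5 at 0.00001; with quantile normalization SDC3 was at 0.016; with array weights SDC3 was at 0.0057 and GPC5 at 0.015. Without number 1 on both sides SDC2 was at 0.030, SDC3 at 0.0050 and GPC5 at 0.029; without number 2 SDC3 was at 0.0034, SDC4 _s_at at -0.027 and SDC4 _x_at at -0.023; without number 3 GPC3 was at 0.0071. With 1 array left out the ranges were -0.13 to 0.0071 for SDC1, -0.11 to 0.032 for SDC2, -0.025 to 0.019 for SDC3, -0.054 to 0.22 for SDC4 _s_at, -0.051 to 0.21 for SDC4 _x_at, -0.084 to 0.041 for GPC3, -0.073 to 0.058 for GPC5, 0.10 to 0.24 for GPC1, -0.21 to -0.027 for GPC4 and 0.025 to 0.086 for GPC6. The cause was not tested beyond naming the array. SDC2, GPC5 and GPC6 are among the dimmest 25% and have no value under that filter.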
